A study of Mus musculus with 10 samples.

Results

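Proliferation genes were followed in the interscapular brown fat (iBAT) of mice, a depot between the shoulder blades that burns fuel to make heat, after exposure to cold. The set was chosen by gene symbol and not by measured values, and holds 10 genes of the cell cycle: *Pcna*, *Mcm2*, *Mcm5* and *Rrm2*, which serve DNA replication in S phase, and *Ccna2*, *Cdk1*, *Ccnb1*, *Top2a*, *Birc5* and *Mki67*, which serve or mark the later steps through G2 and mitosis. All 10 symbols were found once each among the 54347 gene records of the count table. Poly A RNA had been sequenced from 10 mice on the C57BL/6N background at an age of 12 weeks, all chow-fed, housed singly and held for 24 h at 4 °C before dissection. In 5 of them (ΔGm15551, replicates 1, 2, 4, 5 and 7) both alleles of the lncRNA gene *Gm15551* carried a CRISPR/Cas9 deletion that takes in exon 1, in every tissue, from a single deletion line backcrossed to wild type animals. The other 5 were wild type mice, described as litter mates (replicates 2, 3, 5, 6 and 7). Every mouse was in the cold, so the levels below describe cold iBAT and the only comparison is between the genotypes.

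A cell that divides passes from growth through DNA replication (S phase) and a second gap (G2) into mitosis, and each step needs its own set of transcripts. Genes of S phase are switched on by E2F transcription factors once the cyclin-dependent kinases have inactivated the retinoblastoma proteins, and genes of G2 and mitosis are switched on later by a complex that holds B-Myb and FoxM1 and binds a short promoter element called the cell cycle genes homology region (CHR), often beside CCAAT boxes. In brown fat, cold is known to drive division of precursor cells and of endothelial cells beside the mature adipocytes, which do not themselves divide readily.

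The promoters of 9 of the 10 genes were available from RefSeq (GRCm38.p6), with no entry for *Ccna2*. The 5 windows shown belong to the genes on which the values turn: *Pcna*, the most abundant, *Mcm5* and *Cdk1*, the ones that hold an E2F match, and *Top2a* and *Mki67*, the pair with the highest correlation from mouse to mouse, whose call was lost without wild type replicate 2 or 6. Each is the stretch of 160 bases before the transcription start that RefSeq gives, 5′ to 3′ on the strand of the gene, with matches to the searched letters in capitals. This start need not be the outer end of the GENCODE gene given with each member below, and the windows of *Pcna* and *Cdk1* lie partly inside those gene bounds.

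Pcna: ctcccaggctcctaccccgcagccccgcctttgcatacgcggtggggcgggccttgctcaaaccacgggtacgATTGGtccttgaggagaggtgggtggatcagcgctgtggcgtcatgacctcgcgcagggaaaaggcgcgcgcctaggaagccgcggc
Mcm5: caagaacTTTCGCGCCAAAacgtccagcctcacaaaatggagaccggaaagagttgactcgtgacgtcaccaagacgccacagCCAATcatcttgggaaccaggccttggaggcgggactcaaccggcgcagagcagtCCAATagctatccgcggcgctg
Cdk1: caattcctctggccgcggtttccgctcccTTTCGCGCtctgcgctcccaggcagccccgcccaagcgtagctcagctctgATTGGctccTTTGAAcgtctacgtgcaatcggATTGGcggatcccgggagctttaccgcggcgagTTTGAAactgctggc
Top2a: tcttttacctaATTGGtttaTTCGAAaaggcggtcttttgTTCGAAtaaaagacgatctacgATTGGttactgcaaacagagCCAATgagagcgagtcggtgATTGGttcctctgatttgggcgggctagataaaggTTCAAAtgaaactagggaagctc
Mki67: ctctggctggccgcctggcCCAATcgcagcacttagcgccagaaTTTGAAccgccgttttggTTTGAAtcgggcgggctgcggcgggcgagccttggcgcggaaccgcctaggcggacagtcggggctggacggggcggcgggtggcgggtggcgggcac

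These windows lie at chr2:132253181-132253340 (minus strand), chr8:75109349-75109508 (plus strand), chr10:69352913-69353072 (minus strand), chr11:99024190-99024349 (minus strand) and chr7:135716380-135716539 (minus strand). The letters searched, on both strands, were TTTGAA and TTCGAA for the CHR, CCAAT for the CCAAT box, and TTTCCCGC, TTTGGCGC, TTTCGCGC and TTTGCCGC for an E2F site. Over the 250 bases before the start, *Top2a* held 4 CHR matches and 6 CCAAT matches, and *Mki67* held 2 and 3. *Cdk1* held 2 CHR, 3 CCAAT and 1 E2F match. *Mcm5* held 2 CCAAT matches and 2 E2F matches that overlap each other on opposite strands, and *Pcna* held 1 CCAAT match alone. Of the members not printed, *Mcm2* held 1 CHR and 1 CCAAT match, *Rrm2* 1 CCAAT match, *Ccnb1* 2 CCAAT matches and *Birc5* none of the 3 motifs. Among all 32851 promoters of this length, 17.1% held a CHR match, 33.8% a CCAAT match and 1.86% an E2F match. A match of letters is a description of the sequence and not of binding.

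The libraries held between 9680976 and 15771170 counts per mouse, with the shallowest and the deepest both among the wild type (replicates 7 and 6). *Gm15551* had 0 counts in all 5 ΔGm15551 mice and 1, 2, 6, 7 and 0 counts in wild type replicates 2, 3, 5, 6 and 7. Only wild type replicates 5 and 6 were above 3 counts, the limit that a count of 0 allows, so the targeted gene could not tell the other wild type libraries from the knockouts. Brown adipocyte markers were abundant under the tissue label, and the 10 genes of that list summed to between 25690 and 30324 in every mouse, in counts per 1000000 counts of the library (CPM). A list of 10 skeletal muscle genes ranged from 1.07 to 1566 CPM among ΔGm15551 mice and from 1.37 to 2616 among wild type mice, a spread carried by some libraries of both genotypes. CPM values are scaled by the trimmed mean of M-values (TMM). The replicates are separate mice by their identity numbers.

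Apart from *Pcna*, the proliferation genes were rare transcripts in cold iBAT, and most of their counts came from the replication genes. Summed over the 10 mice, the 4 S phase members had 3675 counts, which is 90.3% of all counts of the set. The 6 members of G2 and mitosis had 397 counts, or 9.75%. Per 1000000 counts of the summed library totals, without TMM scaling, these sums were 28.3 and 3.05. *Pcna* alone had 2707 counts, beside 508 for *Mcm2*, 324 for *Mcm5* and 136 for *Rrm2*. All 10 members had at least 1 count in every mouse. A filter on low counts (at least about 10 counts in 5 mice) kept the 4 S phase members and none of the 6 of G2 and mitosis. In the RNA of a whole tissue, fewer dividing cells and less RNA per dividing cell cannot be told apart.

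Per kilobase of the longest annotated transcript, *Pcna*, the sliding clamp that holds DNA polymerase on its template, stood far above the rest at 13.8 ± 0.965 CPM per kilobase (mean ± SD, n = 10 mice), higher than 75.0% of the 12274 protein-coding genes that were tested and could be given a length. *Mcm2* and *Mcm5*, subunits of the replicative helicase, followed at 1.13 ± 0.193 and 0.750 ± 0.192, above 19.0% and 13.2% of those genes. *Rrm2*, the regulated subunit of ribonucleotide reductase, reached 0.493 ± 0.144, above 8.20%. These 4 levels were all above those of the 6 later genes. Below them came *Ccna2* at 0.246 ± 0.108, *Top2a* at 0.145 ± 0.0667, *Birc5* at 0.142 ± 0.0611, *Ccnb1* at 0.101 ± 0.0407, *Mki67* at 0.0672 ± 0.0455 and *Cdk1* at 0.0659 ± 0.0383. From *Ccna2* downwards, each pair of neighbours in this order differed by less than the larger of their SDs. With the merged length of all annotated exons in place of the longest transcript, the level of *Pcna* was 8.75 and that of *Mcm2* (0.567) came below that of *Mcm5* (0.635), while the S phase members remained above the others. By that length *Top2a* (0.0838) came below *Birc5* (0.139), and *Ccnb1* (0.0594) below *Mki67* (0.0672).

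**Figure D1:**
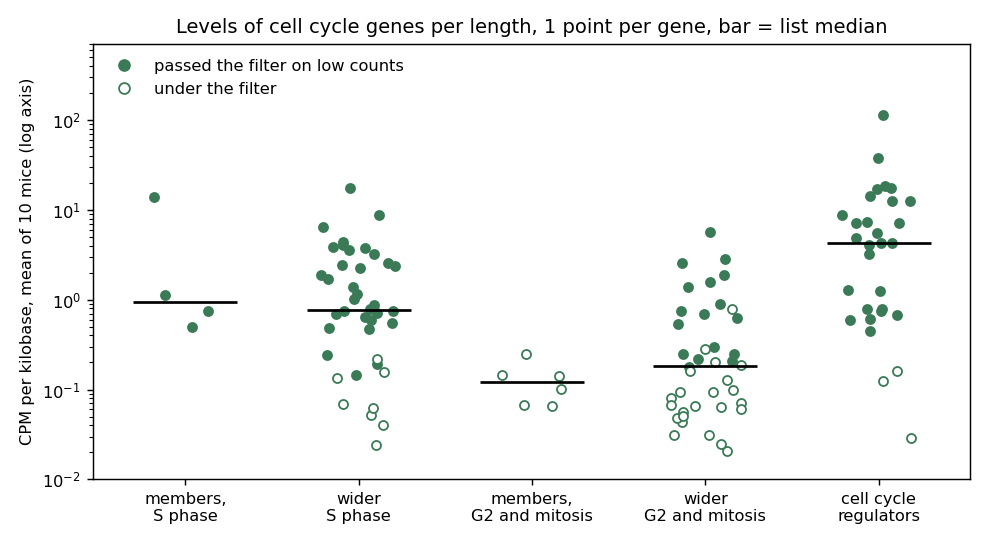
Level of each cell cycle gene in CPM per kilobase of its longest transcript (vertical, log axis; mean of 10 mice), by list, with filled points for genes that passed the filter on low counts, open points for genes under it and a bar at the median of the list. The S phase members have a median of 0.939 and the members of G2 and mitosis a median of 0.121, both below the regulators at 4.27.

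Wider lists of cell cycle genes were also higher for S phase than for G2 and mitosis. Among 40 further S phase genes, 32 passed the filter and the median level was 0.766 CPM per kilobase. Of 40 further genes of G2 and mitosis, 17 passed, with a median of 0.183. Of 30 regulators (cyclins D, kinases, inhibitors, retinoblastoma proteins, E2F and MuvB factors), 27 passed, with a median of 4.27. The median was 4.89 over the 12274 coding genes that passed the filter and 0.685 over all protein-coding records, with or without the filter. For comparison, 56.4% of the protein-coding records passed. The 3 regulators with the highest level were *Cdkn1a* at 113, *Cdkn1c* at 37.7 and *Ccnd3* at 18.5 CPM per kilobase, of which the first 2 encode inhibitors of cyclin-dependent kinases and the third a D-type cyclin that opens the cycle. The highest of the wider S phase list were *Gmnn* (17.7), *Slbp* (8.81) and *Ung* (6.45), which encode geminin, the binding protein of histone mRNA stem-loops and a uracil-DNA glycosylase. The highest of the wider G2 and mitosis list were *Hjurp* (5.69), *Ncapd2* (2.84) and *Cks1b* (2.53), for a centromere chaperone, a condensin subunit and a kinase-binding protein. Of the factors that switch on the late genes, *Foxm1* had 72 and *Mybl2* 75 counts in all 10 mice and fell under the filter, while the MuvB subunits *Lin9*, *Lin37*, *Lin52* and *Lin54* had 318, 1254, 1615 and 763 counts and passed it.

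Between the genotypes, none of the 10 proliferation genes was called different. With edgeR's quasi-likelihood test and Benjamini-Hochberg adjustment over all 13733 genes tested, 0 of the 4 tested members were called at an adjusted p under 0.05, against a background of 0% of all genes, since 0 genes were called. At an unadjusted p under 0.05, 0 of the 4 members were found, against 1.60% of all genes. DESeq2 and limma-voom called 0 genes too. With no filter, 0 of 10 members were under an unadjusted p of 0.05, against 2.80% of the 30984 genes. The CPM ranges of the genotypes overlapped for all 10 members, and they did not overlap for 0.320% of the 13732 genes that passed the filter. The median log2 fold change (log2FC, ΔGm15551 over wild type) was −0.04 over the 4 tested members and −0.00 over all genes.

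**Figure D2:**
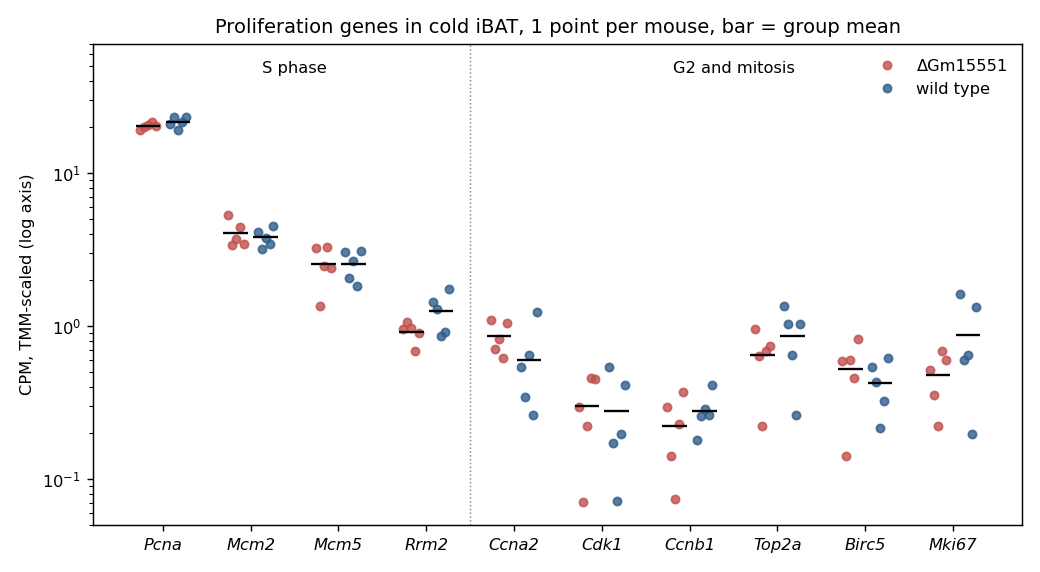
TMM-scaled CPM of the 10 proliferation genes (vertical, log axis) in each ΔGm15551 (red) and wild type (blue) mouse, 1 point per mouse, with a bar at the mean of each group of 5. The genotypes overlap for every gene, from *Pcna* at 19.1 to 23.3 CPM down to *Cdk1* at 0.0710 to 0.537 CPM.

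*Pcna* (chr2:132249162-132253314, minus strand, GRCm38) stood at 19.1, 20.1, 20.8, 21.6 and 20.3 CPM in ΔGm15551 replicates 1, 2, 4, 5 and 7. In wild type replicates 2, 3, 5, 6 and 7 it stood at 20.95, 23.2, 19.2, 21.5 and 23.3 CPM. Wild type replicates 3 and 7 were above all ΔGm15551 mice, and wild type replicate 5 was close to the lowest of them. The means were 20.4 ± 0.933 and 21.6 ± 1.72 CPM (SD, n = 5 each), a log2FC of −0.09 (SE 0.09, 95% CI −0.29 to 0.12, edgeR adjusted p = 0.99998). This is the narrowest interval of the set, at 227 to 331 counts per mouse.

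*Mcm2* (chr6:88883474-88898780, minus strand) had 5.36, 3.41, 3.72, 4.45 and 3.43 CPM in the ΔGm15551 mice. The wild type mice, in the order of their replicates, had 4.12, 3.17, 3.79, 3.45 and 4.52 CPM. Only ΔGm15551 replicate 1 was above every wild type mouse, and the other 4 lay within the wild type range. The log2FC was 0.10 (SE 0.18, 95% CI −0.29 to 0.49, edgeR adjusted p = 0.99998), between means of 4.07 ± 0.831 and 3.81 ± 0.533 CPM.

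*Mcm5* (chr8:75109569-75128439, plus strand) had 3.23, 1.35, 2.46, 3.30 and 2.39 CPM in the ΔGm15551 mice, and 3.04, 2.06, 2.65, 1.82 and 3.08 in the wild type mice. The highest and the lowest mouse of the 10 were both ΔGm15551 (replicates 5 and 2), and the means were 2.54 ± 0.790 and 2.53 ± 0.572 CPM. The log2FC was 0.01 (SE 0.26, 95% CI −0.55 to 0.57, edgeR adjusted p = 0.99998). The other helicase subunits, which form a ring with both, had log2FC of 0.19 (*Mcm3*), −0.13 (*Mcm4*), 0.07 (*Mcm6*) and 0.03 (*Mcm7*), none with an edgeR unadjusted p under 0.05.

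*Rrm2* (chr12:24708241-24714146, plus strand), whose product makes deoxyribonucleotides for replication, had 0.954, 1.07, 0.967, 0.690 and 0.895 CPM in ΔGm15551. Wild type mice had 1.43, 1.28, 0.858, 0.911 and 1.75 CPM. Wild type replicates 2, 3 and 7 were above all ΔGm15551 mice and replicates 5 and 6 lay within their range. The means of 0.914 ± 0.140 and 1.25 ± 0.370 CPM gave the largest log2FC of the 4 tested members, −0.42, with SE 0.27 and a 95% CI of −1.01 to 0.17, so that a reduction to about the lower bound could not be told from no difference at 9 to 17 counts per mouse. Its unadjusted p was 0.148 and its adjusted p 0.99998 in edgeR's test. Leaving out each mouse gave log2FC of −0.53 to −0.28, the smallest without wild type replicate 7.

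The 6 members of G2 and mitosis were compared by their counts and by two-sided exact permutation tests on CPM over all 252 assignments of the 10 mice to groups of 5, since they fell under the filter. The pooled count ratios (ΔGm15551 over wild type, per library total) are given with intervals that cover counting error only.

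*Mki67* (chr7:135689784-135716361, minus strand), which encodes the Ki-67 antigen used to stain dividing cells, had 7, 5, 3, 9 and 8 counts in the ΔGm15551 mice and 18, 7, 9, 3 and 13 counts in the wild type mice. Wild type replicates 2 and 7 held the highest levels, 1.61 and 1.33 CPM, and wild type replicate 6, in the deepest library, the lowest, 0.195 CPM. The ΔGm15551 mice lay between 0.223 and 0.690 CPM. The means were 0.476 ± 0.187 and 0.877 ± 0.580 CPM (SD, n = 5 each; exact permutation p = 0.230). The pooled ratio was 0.590, and its counting interval of 0.366 to 0.938 lay below 1, while the variance of the counts across mice was 4.15 times that of counting alone, the most of the 10 members. Without wild type replicate 6 the difference of −0.572 CPM had an exact permutation p of 0.0317, and without wild type replicate 2 that of −0.218 CPM had an exact permutation p of 0.444, the bounds of p over all the alternatives. In the edgeR fit with no filter the log2FC was −0.83 (95% CI −1.79 to 0.14, adjusted p = 0.835).

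*Top2a* (chr11:98992943-99024189, minus strand), the topoisomerase that untangles sister chromatids, had 13, 9, 3, 9 and 10 counts in ΔGm15551 and 15, 12, 9, 4 and 10 counts in wild type. The lowest mice were ΔGm15551 replicate 4 (0.223 CPM) and wild type replicate 6 (0.260 CPM), and the highest was wild type replicate 2 (1.34 CPM). The means of 0.650 ± 0.267 and 0.860 ± 0.417 CPM lay within the spread of the mice (exact permutation p = 0.373), with a count ratio of 0.811 (0.528 to 1.24). With the 3 wild type mice whose identity numbers form a separate, higher series (replicates 5, 6 and 7) left out, the difference was −0.535 CPM and the exact permutation p 0.0476, the smallest that 5 mice against 2 allow. Without wild type replicate 2 the difference was −0.0892 CPM (exact permutation p = 0.635) and without ΔGm15551 replicate 4 −0.103 CPM (exact permutation p = 0.659), the largest p over the alternatives. Without wild type replicate 6 the difference was −0.360 CPM (exact permutation p = 0.0794), the largest with 1 mouse left out.

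*Ccna2* (chr3:36564865-36572150, minus strand), the cyclin of S phase and G2, had 15, 10, 11, 8 and 14 counts in ΔGm15551 and 6, 4, 9, 4 and 12 counts in wild type. All ΔGm15551 mice but replicate 5 were above 4 of the 5 wild type mice, and wild type replicate 7 was the highest of all at 1.23 CPM. The means were 0.857 ± 0.210 and 0.603 ± 0.383 CPM (exact permutation p = 0.230), and the count ratio was 1.53 (0.987 to 2.39). Without wild type replicate 7 the difference was 0.411 CPM with an exact permutation p of 0.0238, without wild type replicate 6 it was 0.168 CPM, and over the alternatives p ran from 0.0238 to 0.900. The end of *Ccna2* overlaps *Exosc9* on the opposite strand, which had 1712 counts in all, and 12.0% of the 31-base words of the *Ccna2* transcripts occur in other genes, mostly in that one.

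*Birc5* (chr11:117849251-117855743, plus strand), which encodes survivin, a part of the chromosomal passenger complex, had 8, 2, 8, 6 and 11 counts in ΔGm15551 and 6, 5, 3, 5 and 6 in wild type. ΔGm15551 mice held both the highest (replicate 7) and the lowest level (replicate 2). Means of 0.521 ± 0.248 and 0.424 ± 0.161 CPM gave an exact permutation p of 0.492 and a count ratio of 1.29 (0.751 to 2.25). The difference in means was 0.0218 CPM without ΔGm15551 replicate 7 and 0.191 CPM without ΔGm15551 replicate 2 (exact permutation p = 0.849 and 0.119).

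*Cdk1* (chr10:69335146-69352938, minus strand), the kinase that starts mitosis, had 4, 1, 3, 6 and 6 counts in ΔGm15551 and 6, 2, 1, 3 and 4 in wild type. Both genotypes held a mouse with a single count, and the means of 0.299 ± 0.163 and 0.277 ± 0.191 CPM differed by less than either SD (exact permutation p = 0.833). The count ratio was 1.15, with bounds of 0.567 and 2.38.

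*Ccnb1* (chr13:100778650-100786570, minus strand), the cyclin that binds this kinase, had 4, 2, 1, 3 and 5 counts in ΔGm15551 and 2, 3, 4, 4 and 4 in wild type. Of the wild type mice, 4 lay within the ΔGm15551 range and replicate 7 above it, with means of 0.223 ± 0.118 and 0.279 ± 0.0840 CPM (exact permutation p = 0.405). The count ratio was 0.813, with bounds of 0.378 and 1.73. The difference in means was −0.0190 CPM without ΔGm15551 replicate 4, −0.0231 CPM without wild type replicate 7 and −0.0936 CPM without ΔGm15551 replicate 7. Of its 31-base words, 27.8% also occur in other genes, chiefly the pseudogene *Ccnb1-ps* and its like, which were listed at 0 counts. The same share was 23.3% for *Pcna*, nearly all in *Pcna-ps2* with 1 count, and 12.8% for *Rrm2*. It was at most 5.03% for the other 6 members.

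**Figure D3:**
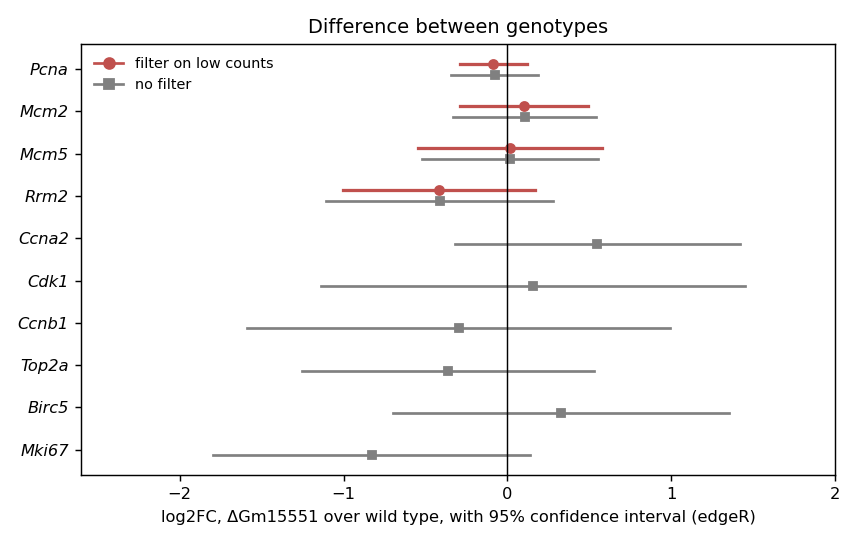
log2FC of ΔGm15551 over wild type (horizontal) with its 95% confidence interval for each of the 10 proliferation genes, from the edgeR fit with the filter (red circles, 4 genes) and with no filter (grey squares). All intervals include 0, and they widen from *Pcna* (−0.29 to 0.12) to the rare genes such as *Mki67* (−1.79 to 0.14).

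The other genes of the cycle gave no call in either direction. Of the 32 tested genes of the wider S phase list, 0 were called, and 0 were higher and 1 was lower at an unadjusted p under 0.05, beside 1.60% of all genes. That one was *Cdc45*, which loads onto the helicase at origins, with means of 4.19 ± 0.426 CPM for ΔGm15551 mice and 5.51 ± 0.890 for wild type mice (log2FC −0.40, edgeR unadjusted p = 0.0264, adjusted p = 0.99998). The next smallest p values on this list belonged to *Gins1*, its partner in the active helicase (log2FC −0.55), and *Tyms*, thymidylate synthase (log2FC −0.31). The median log2FC of the list was −0.09. The 17 tested genes of the wider G2 and mitosis list had a median log2FC of −0.10 and none at an unadjusted p under 0.05, with the smallest p for *Cenpa* (log2FC −0.17), *Tacc3* (−0.32) and *Cks1b* (−0.25). The median over all genes tested was −0.00. Of the S phase list 12 genes were above and 20 below 0, and of the G2 and mitosis list 4 and 13. Over all genes that passed the filter 6826 were above and 6906 below 0. These directions were not tested. With no filter, 2 of the 110 genes of the wider lists and the regulators had an edgeR unadjusted p under 0.05, beside 2.80% of all genes, and 0 were called.

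Among the 27 tested regulators the median log2FC was 0.02, and again none had an unadjusted p under 0.05 in edgeR's test. The smallest p values belonged to the inhibitors *Cdkn2b* (log2FC −0.59) and *Cdkn2d* (0.28) and to the kinase *Cdk2* (0.15). *Cdkn1a*, the inhibitor with the highest level, averaged 252.5 ± 95.04 CPM over the ΔGm15551 mice and 215.7 ± 51.6 over the wild type mice (log2FC 0.23). The D-type cyclins had log2FC of −0.08 (*Ccnd1*), 0.02 (*Ccnd2*) and 0.13 (*Ccnd3*). The inhibitors *Cdkn1b*, *Cdkn1c* and *Cdkn2c* had log2FC of 0.00, 0.11 and 0.17, and the activator *E2f1* of S phase genes 0.16. *Foxm1* had 0.401 ± 0.152 CPM in ΔGm15551 and 0.767 ± 0.387 in wild type, and *Mybl2* 0.685 ± 0.249 and 0.480 ± 0.156, both outside the fit with the filter.

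From mouse to mouse, the variance of the counts was 4.15 times that of counting for *Mki67*, 2.59 times for *Mcm5*, 2.25 times for *Top2a* and 1.94 times for *Mcm2*, between 1.14 and 1.79 times for 5 others, and 0.471 times for *Ccnb1*, given as a description of 10 mice with no test. In relative terms the coefficient of variation ran from 6.98% for *Pcna* to 67.7% for *Mki67*. The summed level of the 6 members of G2 and mitosis ran from 2.06 to 4.03 CPM in ΔGm15551 and from 1.497 (replicate 6) to 5.03 CPM (replicate 7) in wild type. The summed level of the 4 S phase members ran from 25.9 to 30.1 CPM in ΔGm15551 and from 26.5 to 32.7 CPM in wild type. The highest mouse of both sums was wild type replicate 7, which is also the shallowest library, and the part of depth in this was not tested.

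*Mki67* and *Top2a* had the highest correlation of all pairs of members. Across the 10 mice the log2 CPM of the 2 genes had a Pearson's r of 0.86 (permutation p = 0.00248, adjusted p = 0.0223 over the 9 other members) and a Spearman's rho of 0.76 (permutation p = 0.0146, adjusted p = 0.132). Of the 13732 genes that passed the filter, 8 (0.0583%) had an r with *Mki67* at or above that of *Top2a*, and r over these genes ran from −0.92 to 0.97. With each genotype centred on its mean, r was again 0.86. Without the mice farthest from the median of *Mki67*, wild type replicates 2 and 6, r was 0.75 and its adjusted permutation p 0.222. Without wild type replicate 2 alone r was 0.83 (adjusted permutation p = 0.0522), and without replicate 6 alone 0.81 (adjusted permutation p = 0.0590), so the call rests on these mice.

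**Figure D4:**
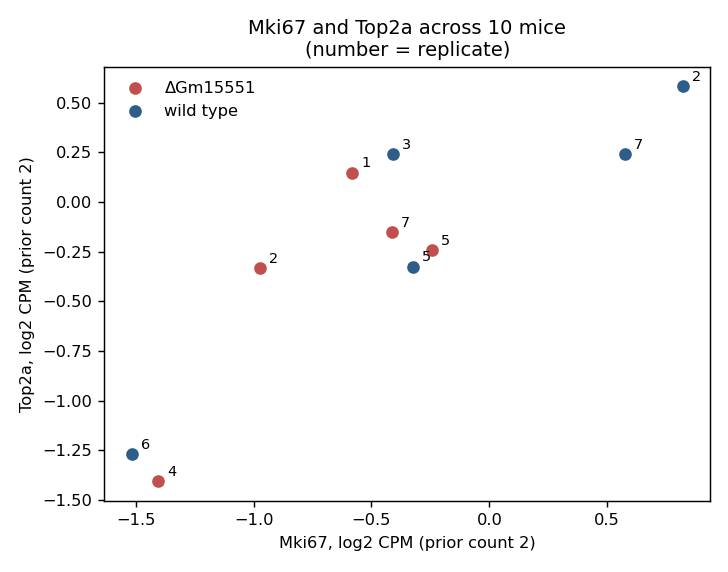
log2 CPM of *Mki67* (horizontal) against *Top2a* (vertical) in the 10 mice, with ΔGm15551 in red, wild type in blue and the replicate number beside each point. Wild type replicate 2 is highest and wild type replicate 6 and ΔGm15551 replicate 4 are lowest in both genes, with r = 0.86 over all 10.

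The 8 other members also had a positive r with *Mki67*, from 0.26 (*Pcna*) to 0.60 (*Mcm5*), none of which passed adjustment (permutation p, adjusted over the 9, of 0.202 or more). Single mice moved these values: *Pcna* had an r of 0.000596 without wild type replicate 7, and *Ccnb1*, at 0.43 in all mice, had 0.17 without ΔGm15551 replicate 4 and 0.70 without wild type replicate 2. The median r of the 9 members with *Mki67* was 0.43, beside a median of 0.02 over the genes that passed the filter, of which 51.0% (7005 genes) had an r above 0. Over all 45 pairs of members the median r was 0.31 and 42 were above 0, the highest after *Mki67* with *Top2a* being *Cdk1* with *Birc5* (0.83) and *Mcm2* with *Mcm5* (0.78). Within the S phase members the median r was 0.03 over 6 pairs, from −0.22 to 0.78, with 4 above 0, and within those of G2 and mitosis it was 0.31 over 15 pairs, all above 0. No background of pairs among other genes is given here, and pairs that share a gene are not independent. All these values share the scaling of their library, and at 1 to 18 counts per mouse a weak correlation of the later genes says little.

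Among the cell types of the depot, no marker list had a correlation with *Mki67* that passed adjustment. The mean log2 CPM of mural cell markers had r = 0.58 and rho = 0.77 with *Mki67* (permutation p of rho 0.0127, adjusted over 8 lists 0.102), and r = 0.59 without wild type replicates 2 and 6. Endothelial markers had r = 0.56 and rho = 0.52, with r = 0.55 without those mice. The r and rho were 0.50 and 0.22 for macrophage, 0.48 and 0.31 for mesenchymal progenitor, 0.27 and 0.35 for skeletal muscle, 0.19 and −0.02 for red blood cell precursor, 0.08 and −0.07 for lymphocyte and −0.52 and −0.31 for brown adipocyte markers. Without wild type replicates 2 and 6 these r became 0.22, 0.18, 0.17, 0.46, 0.48 and −0.68 in the same order of lists. The adjusted permutation p of r over all 10 mice was 0.257 or more for all 8 lists. Summed endothelial markers, all 10 of which passed the filter, ran from 1023 to 1780 CPM in ΔGm15551 and from 961.1 to 1718 CPM in wild type. The 8 lymphocyte markers, none of which passed the filter and none of which was at 0 in all mice, summed to 2.23 to 4.48 CPM in ΔGm15551 and to 2.78 to 5.24 CPM in wild type. The part of any of these cell types in the levels of the proliferation genes was not tested.

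The genes whose pattern over the 10 mice was most like the mean of the 4 tested members (standardised log2 CPM) were *Gm32688* (r = 0.96), *Cmtm7* (0.95), *Rwdd1* (0.95), *S100a6* (0.94), *Septin8* (0.93), *Smim11* (0.93), *Gm25197* (0.93), *Rpl36a-ps2* (0.93), *Rpl35* (0.93) and *Hip1* (0.93). None of the 10 was on one of the wider cell cycle lists. These lists held only 76 of the 13733 genes tested, so their absence among 10 genes says little. The mean pattern itself was highest in wild type replicate 7 and lowest in ΔGm15551 replicate 2, and these values are a description of 10 libraries with no test.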

How the data were processed

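Poly A RNA of iBAT from 10 mice was analysed as 1 table with a column per mouse. Per the labels and methods, the authors trimmed and filtered the reads (cutadapt) and mapped them with Salmon to the GENCODE M22 transcriptome of GRCm38, or to M22 joined with RNAcentral. The values deposited by the authors were estimated counts (expected counts) per gene, already whole numbers and not scaled to depth. How they were rounded, whether strand was used and the tool versions are not given in the sources used here. The members and lists were chosen with earlier results of these data known.

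The counts were fitted with edgeR 4.0.16 in R 4.3.3. filterByExpr (minimum count 10, minimum total 15) kept 13732 of 54347 gene records. *Gm15551* was added as the target, giving 13733. After TMM scaling, genotype was the sole term of a robust quasi-likelihood model, and Benjamini-Hochberg adjustment ran over all genes tested (threshold 0.05). Standard errors of log2FC were obtained from the F statistics. log2 CPM had a prior count of 2. Members under the filter were compared by exact permutation tests, and correlations by 100000 resamples, two-sided (scipy 1.17.1). For RNA-Seq the study used DESeq2, with no covariate named. Scripts were tested on simulated data.

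Totals of 9680976 to 15771170 counts set the precision, which is low for rare genes. A floor of 3 counts corresponded to 0.190 to 0.310 CPM per library. The intervals of the pooled count ratios and the floors cover counting error only, and reads that carry no molecular identifier are not independent molecules. The intervals of log2FC come from the quasi-likelihood fit and also hold the spread between mice. No 2 libraries of the same genotype agreed within sampling noise. Positions, transcript lengths and shared 31-base words came from GENCODE M21 on the same build (99.5% of IDs found).

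Alternatives were DESeq2 size factors, library totals, no filter, a filter of 1 CPM in 5 mice, limma-voom (limma 3.58.1), the Wald test of DESeq2 1.42.0, each mouse left out, a replicate block, the same 6 mice unblocked, 3 wild type mice left out, a skeletal muscle covariate, a prior count of 0.5, genotype-centred values and merged exon length. By rule, the genes named were the members, *Gm15551*, from each wider list any called gene or else the 3 with the smallest p and the 3 with the highest level per kilobase, the other MCM subunits, the D-type cyclins, *Cdkn1a*, *Cdkn1b*, *Cdkn1c*, *Cdkn2c*, *E2f1*, *Foxm1*, *Mybl2*, and the 10 genes with the most similar profile. *Exosc9*, the pseudogenes and the MuvB subunits fall outside this rule.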

Additional observations from a re-analysis of the deposited data

Results flagged for a closer look

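None of the 24 groups of 5 mice searched (10 members and 2 sums in each genotype) held a mouse that stood apart by Dixon's ratio at its critical value of 0.71, where about 1.2 groups would by chance (1 in 20).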

How the results depend on the processing

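Under all 20 alternatives of the fit, 0 genes, 0 members and 0 genes of the wider cell cycle lists were called. The number of members tested was 4, but 10 with no filter, 3 with at least 1 CPM in 5 mice, 6 without wild type replicates 5, 6 and 7 and 4 to 6 with each mouse left out, *Ccna2* and *Top2a* being the ones that entered. The median log2FC of the tested members was −0.04, −0.26 with the replicate number as a block in the 6 mice that share numbers 2, 5 and 7, −0.23 in those mice without the block, and −0.11 to 0.09 with each mouse left out. The deviations of same-numbered mice correlated at −0.07, 0.05 and −0.39. So few pairs, with no unmatched pairs beside them, cannot tell whether the numbers pair the mice. The log2FC of *Mcm2* became −0.14 with the replicate block, −0.14 in the 6 mice without it and −0.0185 to 0.165 with each mouse left out. That of *Mcm5*, 0.01, became −0.38 with the replicate block, −0.32 without it, −0.0108 with limma-voom, −0.00149 without those 3 wild type mice and −0.10 to 0.17 with each mouse left out. In the 6 mice without the block, the differences in mean CPM of *Ccna2* and *Cdk1* became −0.0151 and −0.0136. Without those 3 wild type mice that of *Cdk1* was −0.0552 and that of *Ccnb1* 0.00457, and with each mouse left out *Cdk1* ran from −0.0296 to 0.0869. The correlation of *Mki67* with *Ccna2* ran from −0.0256 to 0.491 with each mouse left out. The number of members correlated with *Mki67* fell from 1 to 0 without the 2 mice farthest from its median, and was 0 to 1 with each mouse left out (0 without wild type replicate 2 or 6). The cause of these shifts was not tested. Wild type replicates 5, 6 and 7 carry identity numbers of a separate, higher series with no ΔGm15551 mouse, so series and genotype cannot be told apart among them. At 1 to 18 counts per mouse, only large differences in the G2 and mitosis genes were detectable.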
